A study of Homo sapiens with 5 samples.

Results

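The 37 genes described here encode the machinery of glycolysis and glucose use. They were taken from a list of named genes of the pathway, drawn up when earlier results of these data were known, and they are among 20098 protein-coding genes annotated on chromosomes 1 to 22 and X. The list holds the glucose carriers, the hexokinases, the enzymes of every later step from glucose 6-phosphate to pyruvate, the enzymes that set the level of fructose 2,6-bisphosphate, the lactate dehydrogenases, the pyruvate dehydrogenase kinases, the lactate carriers and 3 enzymes of the pentose phosphate pathway. It includes several isoenzymes for most steps, so that forms used by most cells can be set beside forms known mainly from liver, muscle, brain, blood cells or testis.

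Binding was measured by ChIP-Seq in LM2 cells, which were obtained from MDA-MB-231, a human breast cancer cell line, and which metastasize to the lung. The study shows blots, for its ChIP-Seq, of LM2 cells with a control vector or an shRNA against a factor. Which cells gave each ChIP library is not stated there. A single library was made for each of the transcription factors E2F1, MYC and Fra-1, and its peaks were called against input DNA that all of them shared. Samples of EZH2 and of the input are among the 5 samples of the series, and no peak list of either was used here. No library was replicated, so the counts and values describe these libraries and carry no replicate error, and RNA was not measured here, so neither expression nor cell type markers could be examined.

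Glycolysis splits glucose into pyruvate with a small gain of ATP, and many tumour cells run it fast and export the product as lactate even when oxygen is present. Intermediates of the pathway also feed the pentose phosphate pathway, which supplies ribose and NADPH for growth. MYC is a well known activator of glycolytic genes and binds DNA with MAX at E-boxes, Fra-1 (FOSL1) is a subunit of the AP-1 dimer, and E2F1 is best known for genes of DNA replication and is often found at CpG-rich promoters.

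Most of the 37 genes had an E2F1 peak at the promoter, and 19 had a MYC peak. Every gene with a MYC peak at its promoter also had an E2F1 peak there, and 11 genes had peaks of all 3 factors, namely SLC2A1, HK1, PFKP, ALDOA, GAPDH, ENO1, ENO3, PKM, SLC16A3, TKT and TALDO1. Another 8 genes had MYC and E2F1 without Fra-1 (HK2, GPI, ALDOC, PFKFB3, LDHA, LDHB, PDK2 and PGD). PFKFB2, PFKFB4 and PGK1 had Fra-1 and E2F1 without MYC. E2F1 was alone at SLC2A3, PFKL, PFKM, TPI1, PFKFB1, PGAM1, ENO2, PDK1, PDK3 and PDK4. No peak of any factor was called at the promoters of HK3, PGAM2, PKLR, LDHC and SLC16A1. Among the other protein-coding genes, 61.3% had an E2F1 promoter peak, 17.8% MYC and 4.63% all 3 factors. E2F1 alone was at 35.9% of them and no factor at 37.8%. Of those with MYC, 99.7% also had E2F1.

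A promoter here is the sequence from 2 kb upstream to 2.5 kb downstream of any annotated transcription start site (TSS) of the gene, and a gene was counted as bound when a peak overlapped this window by at least 1 bp. Fold enrichment is the pileup of fragments at a summit, the highest point of a peak, divided by the local background in the input. The −log10 q beside it states how far the peak stands above that background after correction for the number of tests in the genome, and peaks were called at a q-value of 0.01. The Fra-1 list held 17320 peaks from 12931227 filtered tags, the MYC list 4867 from 23853621 and the E2F1 list 36933 from 18056168, against 10758036 tags of input. Because depth and peak number differ, fold enrichments of different factors should be compared only loosely. Over all peaks of a list, the median fold enrichment was lowest for MYC (6.67), with 8.24 for Fra-1 and 8.88 for E2F1.

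The sequences below show where the letters of each factor's motif lay at the summits of the strongest such peaks, since the same motifs are counted over all the genes further on. Each is written 5′ to 3′ on the strand of its gene, from GRCh37 (hg19), with the motif in capitals. The first 3 hold the E-box CACGTG under the strongest MYC peaks with one, at chr2:75062076-75062135 in an HK2 intron, at chr10:6244760-6244819 beside the PFKFB3 TSS and at chr12:21810317-21810376 in an LDHB intron (minus strand).
HK2: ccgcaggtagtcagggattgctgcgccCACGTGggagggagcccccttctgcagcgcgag
PFKFB3: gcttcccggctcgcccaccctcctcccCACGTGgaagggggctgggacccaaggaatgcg
LDHB: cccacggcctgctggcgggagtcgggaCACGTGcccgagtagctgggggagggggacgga

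The next 3 hold an AP-1 site, TGACTCA or its reverse complement TGAGTCA, under the strongest Fra-1 peaks. They lie at chr10:3113779-3113839 in a PFKP intron, at chr17:80175674-80175734 just upstream of the first SLC16A3 TSS and at chr1:43407570-43407630 in an SLC2A1 intron (minus strand).
PFKP: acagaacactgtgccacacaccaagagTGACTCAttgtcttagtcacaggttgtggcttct
SLC16A3: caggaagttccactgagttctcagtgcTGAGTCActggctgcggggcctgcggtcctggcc
SLC2A1: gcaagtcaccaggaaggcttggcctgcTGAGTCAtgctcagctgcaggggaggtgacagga

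The last is the 1 match to an E2F motif at the summit of an E2F1 peak of these genes, at chr3:48595646-48595705 in PFKFB4 (minus strand).
PFKFB4: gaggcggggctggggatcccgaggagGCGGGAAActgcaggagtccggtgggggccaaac

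**Figure D1:**
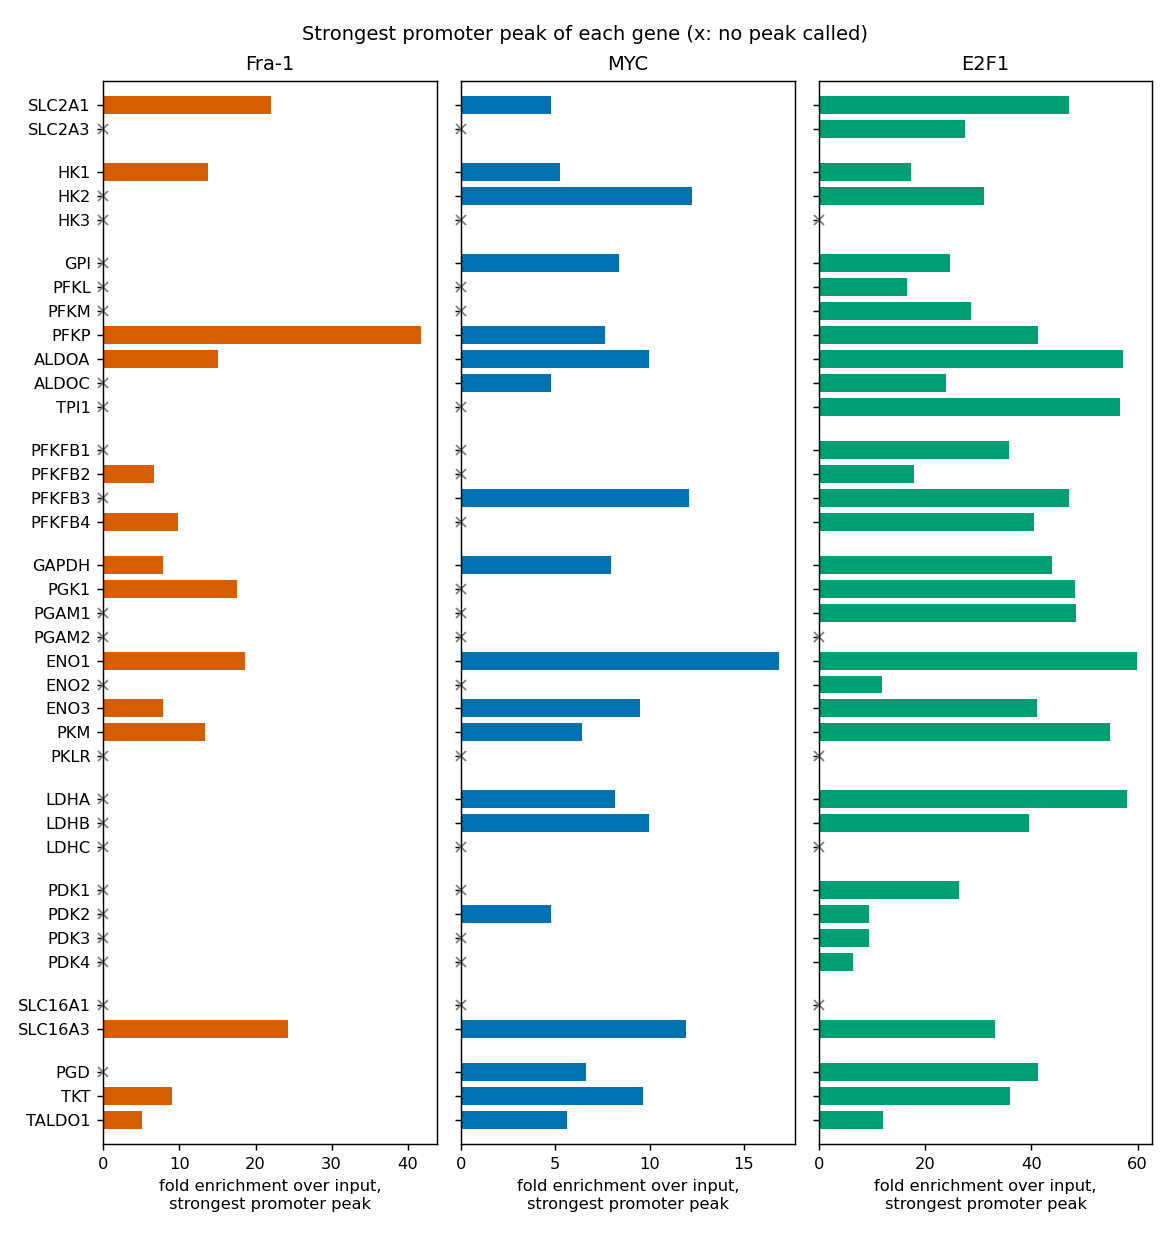
Fold enrichment over input (horizontal axis, linear and different for each factor) of the strongest promoter peak of each of the 37 genes, in the Fra-1, MYC and E2F1 libraries; genes are ordered by their role, and a cross stands for no called peak. E2F1 bars stand at 32 genes, MYC bars at 19 and Fra-1 bars at 14, and the longest are those of PFKP for Fra-1 (41.8) and ENO1 for MYC (16.9) and E2F1 (59.8).

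Of the 37 genes, 14 had a Fra-1 promoter peak (37.8%), against 13.2% of the 20061 other protein-coding genes. MYC peaks were found at 19 of the 37 (51.4%), against 17.8% of the other genes. E2F1 peaks were found at 32 (86.5%), against 61.3%. For Fra-1 and MYC the share was thus close to 3 times that of the other genes (ratios of 2.87 and 2.89), and for E2F1, which marked most promoters in the genome, the ratio was 1.41. Peaks of all 3 factors stood at 11 of the 37 genes (29.7%) against 4.63%, and the same 11 genes were those with MYC and Fra-1 together, against 4.64% elsewhere. E2F1 without MYC or Fra-1 was found at 10 genes (27%) and at 35.9% of other genes, and no peak of any factor at 5 genes (13.5%) against 37.8%. These shares are descriptions of a list of related genes and were not tested.

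The glycolysis genes have more annotated start sites than other genes, with a median of 10 against 5, and hence longer promoter windows (a median of 14810 bp against 9222 bp). When only genes with 6 to 14 start sites were compared, Fra-1 was at 8 of 20 glycolysis genes (40%) and 16.5% of the others, MYC at 10 (50%) and 23.2%, and E2F1 at 18 (90.0%) and 76.1%. The higher shares were therefore also present among genes with like numbers of start sites. The choice of start sites mattered most for Fra-1. With 1 canonical TSS per gene, Fra-1 peaks remained at 5 genes (ALDOA, ENO1, ENO3, GAPDH and PKM), 13.5% against 7.19% of other genes, whereas MYC remained at 17 genes (45.9% against 15.8%) and E2F1 at 31 (83.8% against 57.2%).

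**Figure D2:**
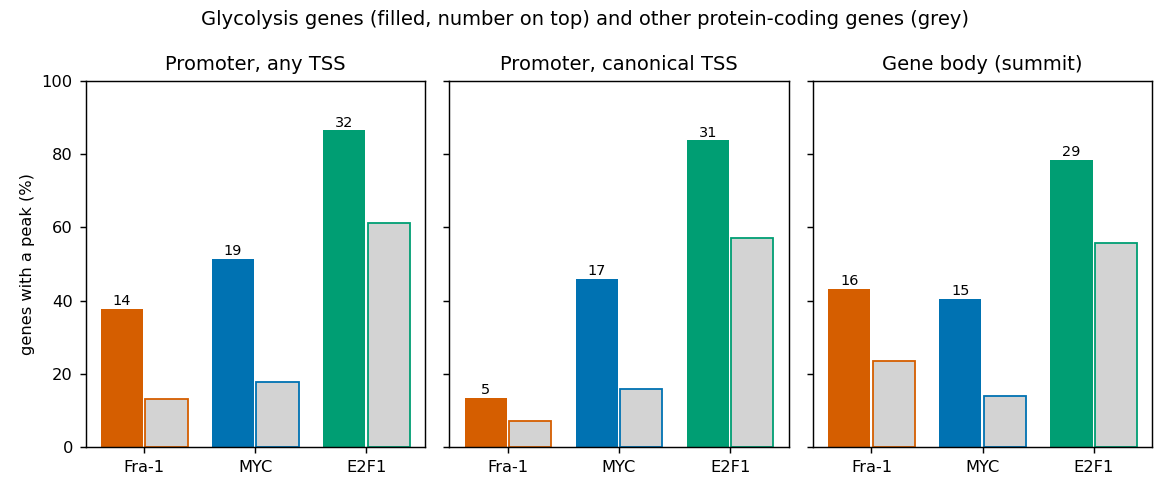
Percentage of genes with a peak (vertical axis) among the 37 glycolysis genes (filled bars, number of genes on top) and the 20061 other protein-coding genes (grey bars), for promoters around any TSS, promoters around the canonical TSS, and summits in the gene body. The filled bar is the taller of each pair, and the Fra-1 bar drops from 14 to 5 genes when a gene is given only its canonical TSS.

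Where they were bound, the glycolysis genes tended to have tall E2F1 peaks. The strongest E2F1 promoter peak had a median fold enrichment of 35.9 over the 32 bound genes and of 22 over the 12289 other bound genes. For Fra-1 the medians were 13.6 over 14 genes and 8.38 over the others, and for MYC 8.15 over 19 genes and 7.21. The gap was thus small for MYC. For Fra-1 it shrank to 8.97 against 8.11 with windows of 1 kb on either side of each TSS, since several of the tallest Fra-1 peaks lay farther than that from a start site.

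Both glucose carriers had E2F1 peaks, and SLC2A1 had all 3 factors. Of the other protein-coding genes, 61.3% had E2F1 and 4.63% had all 3. SLC2A1 encodes GLUT1, the carrier for basal glucose uptake in most cells and in many tumours. Its E2F1 peak at the main start site (chr1:43424297-43424681) had a fold enrichment of 47.1 with the summit 33 bp downstream of a TSS. The other 2 factors were not called there. Fra-1 and MYC met instead in an intron near an internal TSS, 16928 bp from the canonical TSS at the Fra-1 summit, where the Fra-1 peak (chr1:43407520-43407701) had a fold enrichment of 22 and a −log10 q of 43.7, and the E2F1 peak one of 15.5. The MYC peak at that place (chr1:43407595-43407707) was among the weakest of these genes, with a fold enrichment of 4.78, a −log10 q of 2.42 and a pileup of 8. SLC2A1 had 2 further Fra-1 promoter peaks in its introns, with fold enrichments of 10.6 and 6.63. SLC2A3, which encodes the high-affinity carrier GLUT3 of neurons, had an E2F1 peak (chr12:8088414-8088841) of 27.6 at its TSS, and its Fra-1 peak (6.31) lay 34657 bp upstream of the nearest own start site, inside the span of a longer annotated transcript.

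The hexokinases, which trap glucose in the cell as glucose 6-phosphate, differed in all 3 factors. HK2, the inducible form found in many tumours, had the second strongest MYC peak of the genes described (chr2:75062002-75062271, fold enrichment 12.3, −log10 q 15.5). It was flanked by MYC peaks of 6.14 and 8.31, so HK2 carried 3 MYC peaks just downstream of its canonical TSS. HK2 had E2F1 at the TSS (chr2:75061153-75061545) with a fold enrichment of 31.0, and its 3 Fra-1 peaks were farther into the gene, over 8 kb from a start site, with fold enrichments of 5.32 to 12.3. HK1, the form of most tissues, had weaker promoter peaks of MYC (chr10:71078840-71078944, 5.27, −log10 q 3.13) and E2F1 (chr10:71077674-71078423, 17.4). Its Fra-1 promoter peaks of 12.1 and 13.8 were at internal start sites, the stronger at chr10:71122577-71122729, 44040 bp from the canonical TSS. HK3, known from white blood cells, had no peak in its promoter or gene body, and the nearest E2F1 summit was 106606 bp from its start sites.

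All 7 genes of the upper steps, which convert glucose 6-phosphate to triose phosphates, had E2F1 promoter peaks, 4 had MYC and 2 had Fra-1. The shares of the other protein-coding genes were 61.3%, 17.8% and 13.2%. GPI, the isomerase that follows hexokinase, had a MYC peak upstream of the gene (chr19:34850113-34850339) with a fold enrichment of 8.39 and a −log10 q of 9.32. ALDOA, the aldolase of muscle and most cultured cells, had E2F1 (chr16:30075203-30078028) at 57.3, MYC (chr16:30076726-30076921) at 9.96 and Fra-1 (chr16:30076719-30076899) at 15.1, and the MYC and Fra-1 summits lay 4 bp apart. TPI1, which interconverts the triose phosphates, had an E2F1 peak of similar height (56.7, chr12:6976618-6976873), with no MYC or Fra-1 peak. Another E2F1 peak counted for TPI1 (30.4) was 42 bp from a start site of SPSB2. ALDOC, the aldolase of brain, had E2F1 at 24.0 and a MYC peak (chr17:26904130-26904263) at the same low values as that of SLC2A1.

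Phosphofructokinase is the main point of control of glycolysis, and its subunits differed. PFKP, the platelet form, had the tallest Fra-1 promoter peak of the 37 genes. This peak (chr10:3113675-3113950) lay in an intron, 1360 bp downstream of an own TSS and 4057 bp downstream of the canonical one, with a fold enrichment of 41.8 and a −log10 q of 124. At the start of PFKP the MYC peaks were at 7.63 (chr10:3110582-3110750, −log10 q 7.03) and 5.01, and E2F1 (chr10:3109703-3111173) was at 41.2. PFKL and PFKM, the liver and muscle forms, had E2F1 alone, with fold enrichments of 16.7 (chr21:45719495-45719854) and 28.6. The E2F1 peak of 28.6 counted for PFKM had its summit on the TSS of the neighbour SENP1, and the tallest at PFKM's canonical start was 20.2.

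The 4 PFKFB enzymes make and remove fructose 2,6-bisphosphate, the strongest activator of phosphofructokinase. PFKFB3, the form with the highest kinase activity, had a MYC peak (chr10:6244757-6244884) 8 bp upstream of a TSS with a fold enrichment of 12.1 and a −log10 q of 15.2, over an E2F1 peak (chr10:6243565-6245121) of 47.0. It had no Fra-1 peak at a promoter and 4 in its gene body, with fold enrichments of 6.07 to 10.8. PFKFB4 had 8 E2F1 promoter peaks, with the tallest at 40.4, and 2 of the 8 (6.31 and 7.71) had summits nearer to start sites of UCN2, at 692 bp and 44 bp. Further peaks of the group were close to neighbours. The Fra-1 peak counted for PFKFB4 (9.84) was 83 bp from a start site of UCN2, the E2F1 peaks of PFKFB2 (17.9 at chr1:207223868-207225059, and 11.1) were within 50 bp of start sites of YOD1, and that of PFKFB1 (35.8) was 12 bp from a start site of APEX2. PFKFB2 and PFKFB1 had no other E2F1 promoter peak, and a Fra-1 peak of PFKFB2 (6.68) lay in its own intron.

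The 9 genes of the lower steps, which yield the ATP of glycolysis, included isoenzymes with peaks of all 3 factors and isoenzymes with none. ENO1, the enolase of most cells, had the strongest promoter peak of both MYC and E2F1. Its MYC peak (chr1:8938007-8939085) was 1079 bp wide with a fold enrichment of 16.9, a −log10 q of 28.3 and a pileup of 26, and E2F1 (chr1:8937906-8939291) reached 59.8 at the same start sites. The 3 Fra-1 peaks of ENO1 had fold enrichments of 18.6 (chr1:8933674-8933950), 9.65 and 6.69, and the middle 1 overlapped the MYC peak. ENO2, the neuronal enolase, had E2F1 alone, at 9.30 near its canonical TSS and at 12.0 where the summit (chr12:7033446-7033854) was 13 bp from a start site of ATN1.

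ENO3, the muscle enolase, had 5 MYC promoter peaks, with fold enrichments of 4.54 to 9.51. The strongest (chr17:4851945-4852130, −log10 q 11.0) and 1 more had summits nearer to start sites of PFN1, a neighbour on the opposite strand, and the remaining 3 were nearer to start sites of ENO3. E2F1 (chr17:4852326-4853204) was at 41.0, and Fra-1 was at 7.87 (chr17:4853410-4853520) and 5.37. Whether these peaks belong to ENO3 or to PFN1 cannot be told apart.

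GAPDH, which makes the first NADH of the pathway, had MYC (chr12:6643101-6643622, 7.94, −log10 q 8.19), Fra-1 (chr12:6641765-6641978, 7.90) and a single E2F1 peak (43.8) that was 6338 bp wide (chr12:6641596-6647933) and covered the whole gene. PKM, the pyruvate kinase of most cells and tumours, had E2F1 (chr15:72522880-72525039) at 54.9 and MYC (chr15:72523443-72523552) at 6.40 at its main start, and Fra-1 (chr15:72519602-72519787) at 13.4 in an intron 3838 bp downstream of the canonical TSS. PGK1 had no MYC peak. Its E2F1 peak at the TSS was at 48.3, and its Fra-1 peak (17.6) was at an upstream start site 39143 bp away. A weak E2F1 peak counted for PGK1 (6.97) was nearer to a start site of ATP7A (194 bp) than to its own (243 bp). PGAM1, the phosphoglycerate mutase of most cells, had E2F1 at 48.4 without MYC or Fra-1. The muscle mutase PGAM2 and the liver and red cell pyruvate kinase PKLR had no peak, and the nearest E2F1 summits were 8661 bp and 7470 bp from their start sites.

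Lactate dehydrogenase interconverts pyruvate and lactate. LDHA, which favours lactate, and LDHB, which favours pyruvate, both had MYC and E2F1 at the start site. The MYC peak of LDHA (chr11:18415848-18416507) had a fold enrichment of 8.15, a −log10 q of 12.7 and a pileup of 23, and that of LDHB (chr12:21810173-21810782) had 9.97, 12.8 and 18. E2F1 was at 57.9 for LDHA (chr11:18415804-18416720) and 39.5 for LDHB (chr12:21809951-21811086). The 2 forms were thus marked alike by MYC, and neither had a Fra-1 promoter peak. LDHC, the testis form next to LDHA, had none, although its start site has a CpG ratio (defined below) of 0.63.

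The pyruvate dehydrogenase kinases all had E2F1 promoter peaks and none had Fra-1. Among the other protein-coding genes, 61.3% had E2F1 and only 13.2% had Fra-1. E2F1 fold enrichment was 26.4 at PDK1 (chr2:173420202-173420659), 9.47 at PDK2, 9.38 at PDK3 and 6.46 at PDK4 (chr7:95225896-95226188), so that the 3 lowest E2F1 values of the 32 bound genes were in this group. PDK2 had the sole MYC peak of the group (chr17:48172500-48172618), at the same low values as those of SLC2A1 and ALDOC.

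Of the lactate carriers, 1 had all 3 factors and 1 had none. SLC16A3, which encodes MCT4, the exporter of highly glycolytic cells, had Fra-1 at 24.3 (chr17:80175551-80175794, −log10 q 48.0) with a MYC peak of 7.98 and an E2F1 peak of 24.1 over the same summit region. A stronger MYC peak of 11.9 (chr17:80187789-80188677, −log10 q 15.5) and the strongest E2F1 peak of 33.1 (chr17:80187009-80189011) lay together near the canonical TSS. SLC16A1, which encodes MCT1, had no peak of any factor in its promoter or gene body. Its start site is CpG-rich (CpG ratio 0.90), and the nearest summit of E2F1 was 72542 bp away, of Fra-1 221420 bp and of MYC 302582 bp.

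All 3 genes of the pentose phosphate pathway had MYC and E2F1 promoter peaks, against 17.8% with MYC and 61.3% with E2F1 among the other protein-coding genes. PGD, the dehydrogenase that yields NADPH, had MYC (chr1:10459038-10459178) at 6.65 and E2F1 (chr1:10458627-10459396) at 41.2, both with the summit 1 bp from a TSS. TKT, transketolase, had MYC (chr3:53288867-53289248) at 9.63 with a −log10 q of 11.0, E2F1 (chr3:53289851-53290035) at 35.9 and Fra-1 (chr3:53270273-53270494) at 8.97. TALDO1, transaldolase, had the weakest peaks of the group, with MYC (chr11:747991-748139) at 5.62, Fra-1 (chr11:762894-763020) at 5.05 and E2F1 (chr11:747111-747366) at 12.1. It held the 1 MYC promoter peak of the 37 genes that did not overlap an E2F1 peak.

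The 8 isoenzymes known mainly from particular tissues (HK3, PFKFB1, ALDOC, PGAM2, ENO2, ENO3, PKLR and LDHC) can be set beside the other 29 genes. This grouping was made with earlier results known, and the 29 still include SLC2A3, PFKL and PFKM, which are also named for particular tissues. E2F1 was at 4 of the 8 and at 28 of the 29, MYC at 2 and at 17, and Fra-1 at 1 and at 13. The shares over the other protein-coding genes were 61.3% for E2F1, 17.8% for MYC and 13.2% for Fra-1. Most of the 8 tissue isoenzymes are also poor in CpG. The CpG ratio is the number of CpG dinucleotides observed within 500 bp of the canonical TSS, divided by the number that the base composition would give. Its median was 0.28 over the 8 tissue isoenzymes and 0.82 over the other 29. ENO2 (0.76) and LDHC (0.63) had the highest ratios of the 8. Base composition and tissue use therefore cannot be told apart in this contrast. Among the 28 glycolysis genes with a CpG ratio of at least 0.6, Fra-1 was at 12 (42.9%), MYC at 17 (60.7%) and E2F1 at 26 (92.9%), against 15.1%, 24.6% and 79.9% of other genes with such a ratio. Among the 9 glycolysis genes with a lower ratio, Fra-1 was at 2 (22.2%), MYC at 2 (22.2%) and E2F1 at 6 (66.7%), against 9.79%, 4.90% and 26.3%. The glycolysis genes thus had the larger share in both CpG classes, although the lower class holds few of them. In that class the Fra-1 genes were PFKFB4 and ENO3 and the MYC genes ALDOC and ENO3. PFKFB1 and ENO3 were among its E2F1 genes. The Fra-1 peak of PFKFB4 and the E2F1 peak of PFKFB1 were nearer to neighbours, and those of ENO3 cannot be told apart from PFN1. The shares of the lower class therefore rest in part on peaks that may belong to other genes.

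**Figure D3:**
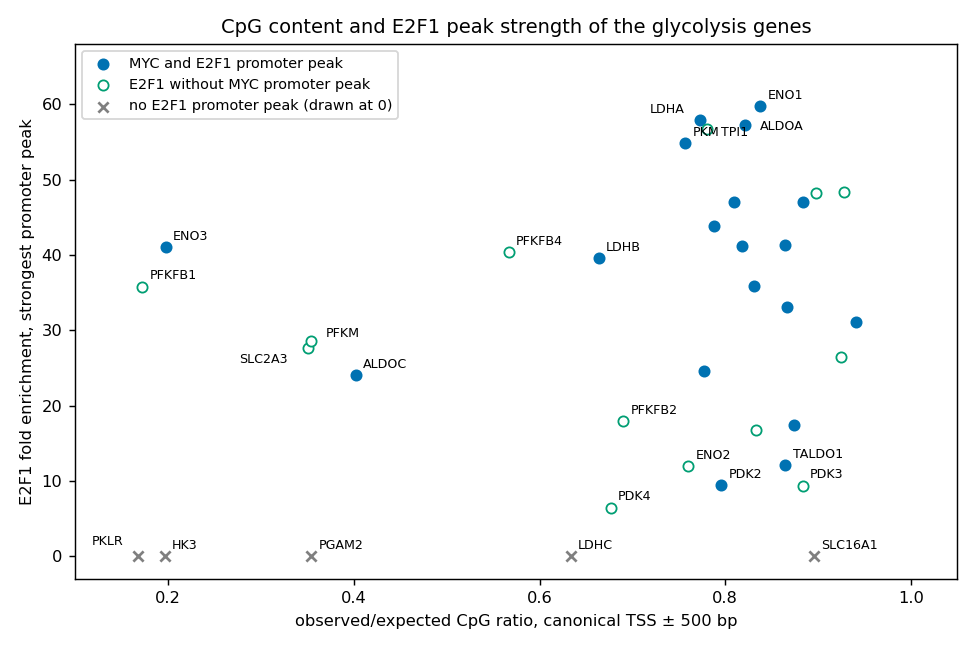
Observed/expected CpG ratio within 500 bp of the canonical TSS (horizontal axis) and fold enrichment of the strongest E2F1 promoter peak (vertical axis) of the 37 genes, by whether MYC was also called; crosses at 0 stand for the 5 genes without an E2F1 promoter peak. PKLR, HK3 and PGAM2 have ratios of 0.17, 0.20 and 0.35, LDHC 0.63, and SLC16A1 stands alone at the right of the unbound genes at 0.90.

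Among genes with an E2F1 promoter peak, MYC was at 19 of 32 glycolysis genes (59.4%) and at 29.0% of other genes, and Fra-1 at 14 (43.8%) and at 20.1%. In the reverse direction, all 19 glycolysis genes with MYC had E2F1, as did 99.7% of other genes with MYC, so this pairing is not particular to glycolysis. Fra-1 was at 11 of the 19 genes with MYC (57.9%), against 26.1%, and at 3 of the 18 without MYC (16.7%), against 10.4%. The strongest E2F1 peak had a median fold enrichment of 41.0 over the 19 genes with MYC and of 27.6 over the 13 with E2F1 and no MYC. The same order was present over the other genes, with medians of 32.1 and 18.5.

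The factors differed in where they stood. Of the 29 MYC promoter peaks, 27 had the summit within 1 kb of an own TSS, at a median distance of 167 bp, and 28 overlapped an E2F1 peak. Of the 116 E2F1 promoter peaks 95 were within 1 kb of a TSS, at a median distance of 200.5 bp, and 53 had the summit in an exon, 42 in an intron and 21 outside the gene. Only 12 of the 23 Fra-1 promoter peaks were so close, at a median distance of 728 bp, and 16 had the summit in an intron. Nevertheless 21 of the 23 overlapped an E2F1 peak, while 5 overlapped a MYC peak. A Fra-1 peak and a MYC peak overlapped, together with E2F1, at SLC2A1, ALDOA, ENO1, ENO3 and SLC16A3. In the remaining 6 genes with all 3 factors, Fra-1 and MYC were called at different places. These positions and overlaps were not counted over the promoter peaks of other genes. Whether any of them is particular to the glycolysis genes was therefore not tested.

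**Figure D4:**
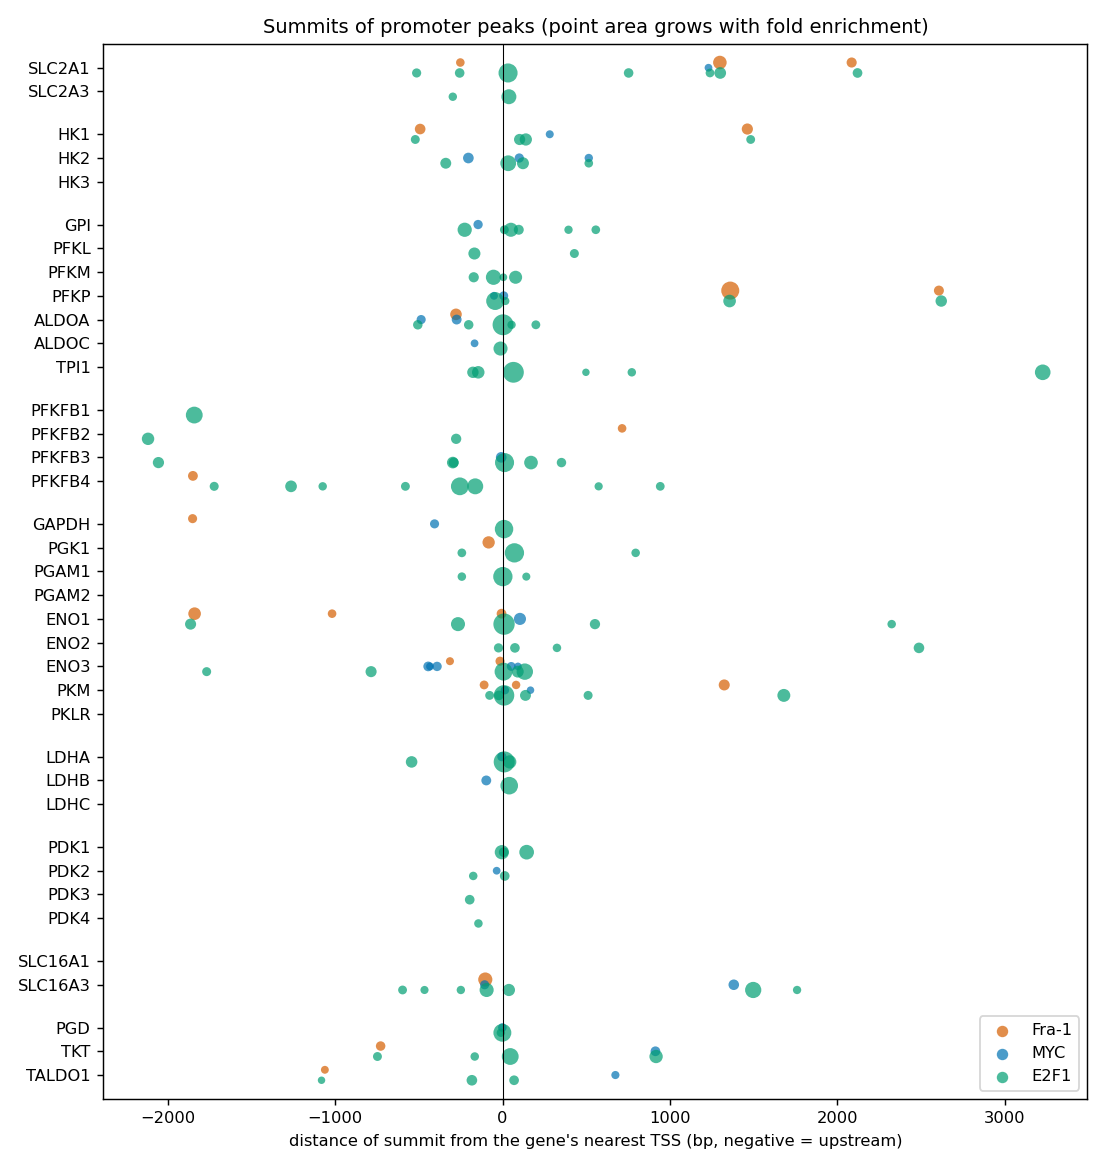
Distance of each promoter peak's summit from the nearest TSS of its gene (horizontal axis, bp, negative upstream), with 1 line per gene and the area of a point growing with fold enrichment. MYC and E2F1 points gather at 0, with medians of 167 and 200.5 bp from a TSS, whereas Fra-1 points are spread more widely, with a median of 728 bp.

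Gene bodies gave a like picture. A summit lay between the ends of the gene in 16 of the 37 genes for Fra-1 (43.2%, against 23.4% of other genes), in 15 for MYC (40.5%, against 13.8%) and in 29 for E2F1 (78.4%, against 55.6%). Any peak in a promoter or gene body was found for 32 genes (86.5%), against 68.1%. Most of these summits were in the promoter windows as well. Outside the windows MYC remained in 1 gene (2.70%, against 2.43%), SLC16A3, where the summit was nearer to a start site of CSNK1D. Fra-1 remained in 9 genes (24.3%, against 17.4%), namely SLC2A1, SLC2A3, HK1, HK2, PFKP, PFKFB3, LDHA, SLC16A3 and TKT, and E2F1 in 11 (29.7%, against 17.7%). The Fra-1 summits in SLC16A3 and LDHA were nearer to start sites of CSNK1D (3214 bp) and LDHC (4707 bp) than to their own. SLC2A3, HK2, PFKFB3 and LDHA had Fra-1 peaks only outside the promoter windows.

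The motifs shown at the outset were counted within 50 bp of each summit on both strands. AP-1 letters were present at 19 of the 23 Fra-1 promoter peaks (82.6%), against 49.4% of the Fra-1 promoter peaks of other genes. The 4 peaks without them were 1 of SLC2A1 (6.63), 1 of HK1 (12.1) and both of ENO3. The E-box CACGTG was present at 8 of the 29 MYC promoter peaks (27.6%), against 16.2%. These were in HK2, PFKFB3, LDHB, GPI, TALDO1, PFKP, ALDOC and PDK2, so that neither the strongest MYC peak, that of ENO1, nor that of LDHA held an E-box near its summit. The ALDOC and PDK2 peaks, with a fold enrichment of 4.78, held one. The E2F motif, searched as TTTCCCGC, TTTCGCGC, TTTGCCGC and TTTGGCGC, was present at 1 of the 116 E2F1 promoter peaks (0.862%), against 2.19% of those of other genes. When the whole called peak was searched, the E2F share was 10.3%, against 6.89%. Letters of AP-1 were found at 9 E2F1 summits (7.76%, against 4.43%) and of the E-box at 4 (3.45%, against 2.93%). A match is a description of the letters in these windows and does not show that the factor binds them.

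Further genes of glucose metabolism, listed beside the 37, can be set beside the same shares of the protein-coding genes outside the 37. Of 58 such genes, 6 had a Fra-1 promoter peak (13.2% of the protein-coding genes), 19 MYC (17.8%), 41 E2F1 (61.3%) and 3 all of them (4.63%), and 17 had no E2F1 peak. Among 20 other isoenzymes and transporters, including PGK2 of testis and SLC2A2 of liver, which had no peak of any factor, E2F1 was at 9, MYC at 2 and Fra-1 at 0.

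A limit of the aligned reads bears on several of these genes. Reads were kept only where they mapped to 1 place, and some glycolysis genes have processed pseudogenes with almost the same exons. By name the annotation lists 63 for GAPDH, 13 for PGAM1, 6 for LDHA, 5 for PKM and 4 each for TPI1 and ENO1. What part such copies or masked sequence had in the peaks called or missed was not tested.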

How the data were processed

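The peaks of 3 ChIP-Seq libraries, 1 each of E2F1, MYC and Fra-1, were used. Per the study's methods and the submitters' processing notes, reads were trimmed (Trimmomatic 0.27) and aligned to a masked hg19 genome with Bowtie 0.12.5, unique reads were kept, and the authors called peaks per library against 1 input library (MACS2 2.0.10). No libraries were pooled. The deposited signal is the pileup at the summit, the deposited fold enrichment is its ratio to the local input background, and p- and q-values were deposited by the authors as −log10 values. All are relative to a library whose depth differs between factors, and the shallow input sets every background.

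Here peaks were joined to GENCODE 44 annotation mapped to GRCh37 (63827 genes). A promoter reached from 2 kb upstream to 2.5 kb downstream of any TSS, and a gene body peak had its summit within the gene span. Shares were set beside those of the 20061 other protein-coding genes. With 1 library per factor, no test across samples was possible and none was made. Motifs were read from GRCh37 within 50 bp of summits.

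The genes, their role groups and the further pathway lists were chosen with earlier results of these data known. All 37 genes are accounted for. Position and fold enrichment are given for the strongest MYC promoter peak of each gene and for genes with all 3 factors. They are also given for the strongest and weakest E2F1 peak of each role group. The −log10 q and the distance to a TSS are given for some of these peaks. A neighbouring gene is named where the summit of a promoter peak lies nearer to its TSS, and sequences are shown for the strongest peaks with a motif. The alternatives were other windows, start sites, peak thresholds, equal peak numbers, other definitions of gene body and strongest peak, and other motif windows. The joins and the motif search were tested on simulated data. Python 3.11.15, numpy 2.4.6, pandas 2.3.3, pysam 0.24.0 and matplotlib 3.10.9 were used.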

Additional observations from a re-analysis of the deposited data

How the results depend on the processing

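Of 62 alternative calculations, 48 kept a count or median within 1.5 times the reported one and on the same side of the other genes, 13 moved it further and 1 turned its direction. With 1 canonical TSS per gene, Fra-1 was at 5 genes, all 3 factors at 5 genes, and the Fra-1 median was 7.90 (other genes 7.58). With start sites of protein-coding transcripts only, Fra-1 was at 9 genes (24.3%). With windows of 1 kb the Fra-1 median was 8.97. With 4867 peaks for each factor, promoter peaks were at 8 genes for Fra-1 (21.6% against 3.40%), 21 for E2F1 (56.8% against 25.6%) and 6 for all 3 (16.2% against 0.837%), and Fra-1 was in 8 gene bodies (21.6% against 9.22%). Without promoter windows, 11 gene bodies held E2F1, 9 held Fra-1 and 1 held MYC. The E2F motif share was 1.72% within 100 bp (other genes 3.57%) and, in the whole peak, 10.3% against 6.89%, the opposite order to that at summits. In each of the alternatives for promoters and gene bodies the glycolysis genes had the larger share. Leaving out peaks nearer to a start site of another protein-coding gene, an alternative chosen after seeing the data, left E2F1 at 30 genes (55.4% of other genes), MYC at 19 (14.6%), Fra-1 at 13 (12.1%) and all 3 at 11 (3.74%). At a −log10 q of at least 5, MYC was at 14 genes (37.8% against 12.7%). No paired analysis was possible because each factor had 1 library. How far replicate libraries would move these counts cannot be stated from these data.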

Other observations

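Among the further genes of glucose metabolism, those that move glucose units in and out of glycogen or bring other hexoses into the pathway make up a list of 8. Of these, 7 had a MYC promoter peak, 8 had E2F1 and 0 had Fra-1. The shares of the protein-coding genes outside the 37 were 17.8%, 61.3% and 13.2%. All of the 8 except MPI (0.54) had a CpG ratio of at least 0.6. Of the protein-coding genes outside the 37 with such a ratio, 24.6% had MYC, 79.9% E2F1 and 15.1% Fra-1. The MYC fold enrichment was 18.6 at PYGL, the liver form of glycogen phosphorylase, which is above the highest value of the 37 glycolysis genes (16.9 at ENO1). It was 10.6 at MPI, which joins mannose to glycolysis, 9.07 at PGM2, 8.04 at PYGB, 6.59 at GYS1, the glycogen synthase of muscle, 6.54 at PGM1 and 6.33 at GALK1, the galactokinase. UGP2, which makes UDP-glucose, had E2F1 at 45.4 and no MYC peak. Among 7 genes of gluconeogenesis, 4 had E2F1, and MYC was at G6PC3 (28.5, with 4 peaks) and PC (9.52). Whether summits counted for the further genes lie nearer to start sites of neighbours was not examined. G6PC1, PCK1 and FBP2 had no promoter peak of any factor, and FBP1 had E2F1 alone (8.48).

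All 9 genes for the entry of pyruvate into mitochondria or for pyruvate dehydrogenase had E2F1, with fold enrichments of 16.3 at MPC1 to 49.95 at PDHB. MYC was at 3 of them (PDHB 6.85, DLAT 7.27 and PDP2 6.99). All 9 genes of this list had a CpG ratio of at least 0.6. Of the other protein-coding genes with such a ratio, 79.9% had E2F1 and 24.6% had MYC. The rest of the pentose phosphate pathway had MYC at 3 of 7 genes and E2F1 at 5. Whatever their CpG ratio, 61.3% of the protein-coding genes outside the glycolysis list had E2F1, 17.8% had MYC and 4.63% had all 3 factors. Of 7 regulators, MLXIP and BSG, the partner of the lactate carriers, had all 3 factors, and HIF1A, TIGAR, TXNIP and MYC had E2F1 alone. These lists were named after earlier results of these data were known, and none of their shares was tested.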
